A study of Mus musculus with 12 samples.

Results

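The 39 genes described here are the genes of the type I interferon antiviral response, chosen by name as those whose products sense, degrade, block or tag viral nucleic acids and proteins, or carry and curb the interferon signal. Interferon-inducible GTPases of the GBP family, interferon regulatory factors and antigen processing genes were not among them. Of the 39 genes, 37 had at least 1 array probe that named them alone, and Ifi203 and Ifi44 had none. The series as a whole named 19057 genes. Each gene was read from its probe with the highest mean signal. Femurs of Balb/c mice gave the marrow, and macrophages were raised from it with the growth factor M-CSF at 20 ng/ml, which was then left out for a night before treatment. After 6 h of treatment, RNA was measured on 12 Illumina mouse bead arrays, 3 for each of 4 groups, described as biological replicates. The groups were macrophages given Kdo2-lipid A (KLA) together with human beta-defensin 3 (hBD3), macrophages given KLA alone at 50 ng/ml, macrophages given hBD3 alone, and untreated macrophages. KLA is the lipid A of lipopolysaccharide with its Kdo sugars, a ligand of Toll-like receptor 4, and hBD3 is a cationic antimicrobial peptide of human skin and mucosa. The dose of hBD3 reads 5 mg/ml on the labels of the hBD3 samples and is in micrograms in the study's methods, and the labels of KLA plus hBD3 carry no dose. KLA replicates 2 and 3 bear the word HBD3 in their titles, although their treatment label names KLA only.

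Toll-like receptor 4 uses the adaptors TRIF and TRAM, after uptake of the receptor into endosomes, to activate the transcription factor Irf3 and so the gene of interferon beta, Ifnb1. Secreted interferon beta binds its receptor on the same or on neighbouring cells, where the kinases Jak1 and Tyk2 act on Stat2. The complex ISGF3, of which Stat2 and Irf9 are subunits, then binds interferon-stimulated response elements in the promoters of antiviral genes. Some of these genes, the IFIT genes among them, can also be switched on by Irf3 itself.

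Promoter windows of the genes whose difference between KLA plus hBD3 and KLA was largest are printed because the elements named above would lie there. The sequences are from RefSeq on the build GRCm38.p6, run 5′ to 3′ on the strand of the gene, and span 250 bases before to 50 bases from the annotated start on. Of the 39 genes, 27 had such a window. Capitals mark every match to the 8-letter core AANNGAAA or, on the other strand, TTTCNNTT. The first window, at chr11:88999153-88999452 on the plus strand, belongs to Trim25, a ubiquitin ligase that acts on the RNA sensor RIG-I. The second, at chr5:114922990-114923289 on the plus strand, belongs to Oasl1, a relative of the 2-5A synthetases that in mice holds back translation of Irf7. The third, at chr4:156200769-156201068 on the minus strand, belongs to Isg15, a ubiquitin-like protein that is joined to other proteins. The last, at chr7:78913174-78913473 on the plus strand, is the first listed of 3 windows of Isg20, an RNA exonuclease.
Trim25: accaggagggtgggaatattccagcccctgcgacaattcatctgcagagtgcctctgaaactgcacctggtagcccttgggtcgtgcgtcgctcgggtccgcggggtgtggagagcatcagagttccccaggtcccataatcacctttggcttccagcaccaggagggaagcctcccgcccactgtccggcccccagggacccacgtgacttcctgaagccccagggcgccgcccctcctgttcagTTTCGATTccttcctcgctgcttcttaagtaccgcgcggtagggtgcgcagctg
Oasl1: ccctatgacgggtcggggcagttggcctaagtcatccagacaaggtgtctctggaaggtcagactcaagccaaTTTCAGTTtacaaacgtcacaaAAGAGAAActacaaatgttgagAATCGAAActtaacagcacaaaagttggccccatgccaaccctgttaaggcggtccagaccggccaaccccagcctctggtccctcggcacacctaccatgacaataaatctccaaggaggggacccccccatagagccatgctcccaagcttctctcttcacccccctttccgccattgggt
Isg15: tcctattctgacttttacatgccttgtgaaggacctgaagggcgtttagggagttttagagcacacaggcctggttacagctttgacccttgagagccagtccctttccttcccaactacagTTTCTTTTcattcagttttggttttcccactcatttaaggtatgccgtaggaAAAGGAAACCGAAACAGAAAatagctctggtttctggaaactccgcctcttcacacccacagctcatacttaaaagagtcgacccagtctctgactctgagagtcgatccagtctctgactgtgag
Isg20: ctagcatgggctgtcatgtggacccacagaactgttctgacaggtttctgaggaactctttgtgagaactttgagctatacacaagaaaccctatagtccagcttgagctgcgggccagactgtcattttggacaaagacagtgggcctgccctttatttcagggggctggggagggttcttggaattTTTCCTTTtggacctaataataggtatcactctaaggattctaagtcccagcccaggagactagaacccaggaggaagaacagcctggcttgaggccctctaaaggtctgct
The Isg15 window held 4 matches, 3 of them overlapping in a run that ends shortly before the start, the Oasl1 window held 3, and the windows of Trim25 and Isg20 held 1 each.

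A longer motif, GAAA followed by any 2 letters and GAAA again, or TTTC, any 2 letters and TTTC on the other strand, contains that core and was found in 15 of the 27 antiviral genes with a window. It was found in 3.99% of the 27025 genes with a window in the whole table, and the core in 23 of 27 antiviral genes against 26.7% of all genes. Isg15 carried the longer motif 3 times. The stretches of 30 bases below show it, in capitals, in the other detected antiviral genes that carried it and rose with KLA. They belong to the synthetases Oas1a (chr5:120907524-120907553) and Oas1g (chr5:120887610-120887639), the RNA-dependent kinase Eif2ak2 (chr17:78882533-78882562), the virus inhibitor Rsad2 (chr12:26456551-26456580) and the tethering protein Bst2 (chr8:71537581-71537610), all on the minus strand. They were chosen after the values were seen.
Oas1a: cttctcggGAAATGGAAACTGAAAatctac
Oas1g: cttctcggGAAATGGAAACTGAAAatctac
Eif2ak2: tccgccggGAAAACGAAAcagaagagaacc
Rsad2: ggtccaacTTTCATTTTCagaaaacagaaa
Bst2: cattccagGAAAATGAAACTGAAAggctgc
Oas1a and Oas1g had the same 30 bases. Of the detected antiviral genes with a window, 6 of the 15 called higher with KLA and 4 of the 5 not called carried the longer motif. A gene that was not called may still have risen, and whether the motif goes with the rise was not tested. A match is a run of letters and not a site known to be bound.

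Values are log2 intensity after quantile normalization, and a difference of 1 is a doubling. A signal counted as detected where its detection p-value was under 0.01. A difference was called at a limma adjusted p under 0.05, taken over all 45281 probes with Benjamini-Hochberg adjustment. Of the 37 genes with a probe, 31 passed this in each array of some group, 5 in no array (Ifih1, Ifit1, Ifi204, Trim30a and Xaf1), and the PYHIN gene Ifi205 in 1 untreated array only. Of 10 measured macrophage markers, all were detected in every group, with a mean log2 intensity of 10.83 to 11.12 in KLA plus hBD3 arrays, 10.25 to 10.52 in KLA arrays, 10.84 to 11.14 in hBD3 arrays and 10.80 to 11.10 in untreated arrays. Of 8 markers of plasmacytoid dendritic cells, which are strong makers of interferon, 5 were undetected in every array, the defining Siglech among them, 3 were detected in all arrays of some group, and the list averaged 6.40 to 6.59, 6.65 to 6.88, 6.48 to 6.60 and 6.44 to 6.52 in the same groups. Of conventional dendritic cell markers 1 of 8 was detected in this way, of neutrophil markers 2 of 9, of B cell markers 0 of 3 and of T and NK cell markers 0 of 6. Of the 10 macrophage markers, 2 were called higher and 5 lower with KLA against untreated, with a median of -0.61. With KLA plus hBD3 against KLA, 5 were called higher and 1 lower, with a median of 0.73. Of all probes, 14.8% and 6.99% were called in these comparisons. Of the plasmacytoid markers, 1 was called higher with KLA and 1 lower with KLA plus hBD3 against KLA. The conventional dendritic cell marker was 1.04 higher with KLA than in untreated arrays and 1.37 lower with KLA plus hBD3 than with KLA, both called. The 2 neutrophil markers had a median of 1.36 with KLA, both called, and of -0.89 for KLA plus hBD3 against KLA, 1 called. Stromal markers, 4 of 8 detected, averaged 6.03 to 6.16, 6.22 to 6.31, 6.02 to 7.84 and 5.97 to 6.25, the highest in an hBD3 array. Of the stromal markers, 1 was called higher with KLA and 1 lower with KLA plus hBD3 against KLA. The part of these levels in the results was not tested. In cultured cells measured in bulk, fewer cells that express a gene and less RNA per cell cannot be told apart.

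Within a group, 1 array was often the lowest or the highest for most of the antiviral genes. The genes share their arrays, so such counts are not separate measurements, and no test was run on them. KLA plus hBD3 replicate 3 was the lowest of its group for 29 of the 31 detected genes, while it was lowest for 29.4% of all detected probes, and hBD3 replicate 3 was lowest for 27 (37.8% of detected probes). Replicate 1 was highest for 20 genes in KLA plus hBD3 (28.0% of detected probes), 16 in KLA (22.2%), 24 in hBD3 (29.4%) and 24 in untreated arrays (31.8%). In the replicate 3 arrays of KLA and hBD3, Ddx58 and Tor3a were far below the other replicates. What made these arrays differ was not tested. Results without them are given for some of the calls that changed, and not for all.

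KLA raised the antiviral genes as a group. Of the 31 detected genes 22 rose with KLA against untreated macrophages and 0 fell, which is 71.0%. Among all 45281 probes 14.8% were called in either direction and 6.84% higher, and among the 14495 probes detected like these genes 19% were called higher. The median difference of the 31 genes was 0.99, against -0.06 over all detected probes. In 22 of the 31 genes all KLA arrays lay above all untreated arrays, as they did for 23.9% of detected probes and 13.7% of all probes. Xaf1, a promoter of cell death, also passed the test but was undetected in every array, so no fold is given. With each array centred on its median in place of quantile normalization, 8 of the antiviral genes were called, all higher, with a median of 0.54 against -0.52 over detected probes. The distance between these medians was 1.06 in either case.

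**Figure D1:**
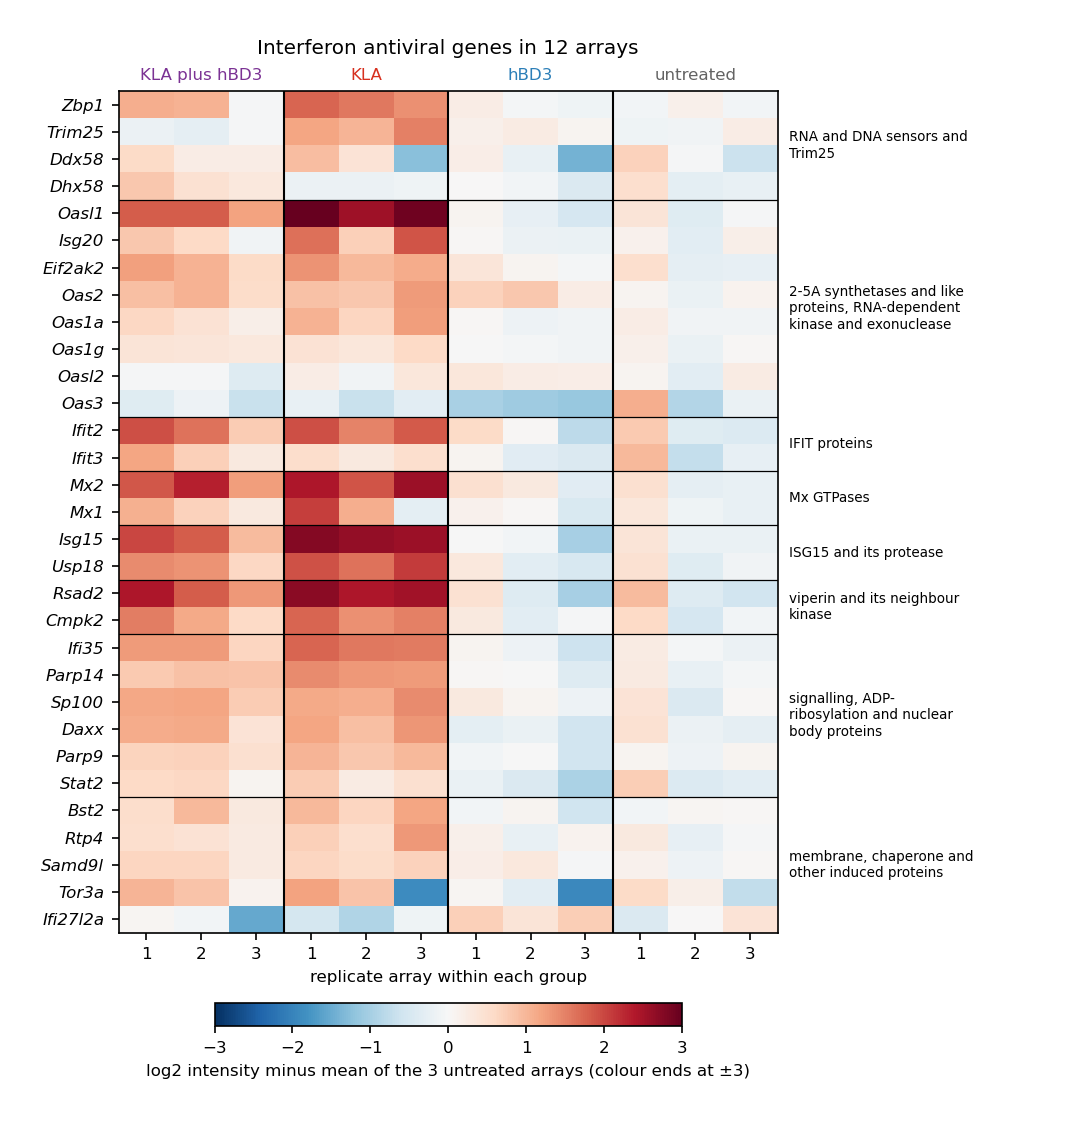
Log2 intensity of the 31 detected antiviral genes in each of the 12 arrays, as the difference from the mean of the 3 untreated arrays (red higher, blue lower, colour scale from -3 to 3), with genes grouped by role and arrays by treatment. KLA arrays are red for most genes, KLA plus hBD3 arrays are paler, above all replicate 3, and Ddx58 and Tor3a are blue in replicate 3 of KLA and hBD3.

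With hBD3 present, the antiviral genes stood between the KLA and the untreated level in most cases. Of the 31 detected genes 13 were higher in KLA plus hBD3 than in untreated macrophages and 0 lower, where 4.39% of all probes were called, 1.96% higher, and 5.95% of detected probes were higher. The median difference was 0.69, against -0.02 over detected probes. With median centring 0 were called, with a median of 0.18 against -0.49 over detected probes, and with neqc, another background correction, 7 were called. The count also rested on single arrays. It was 3 without KLA plus hBD3 replicate 1, 3 without KLA plus hBD3 replicate 2, 6 without untreated replicate 2 and 6 without untreated replicate 3. Of the 21 other settings, the call was lost in 12 for Daxx, 10 for Usp18, 8 each for Parp9 and Samd9l, 7 each for Eif2ak2 and Rsad2, 6 for Oas2, 5 for Sp100, 4 each for Isg15 and Ifi35, 2 for Mx2 and 1 each for Parp14 and Oasl1.

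Set directly against KLA, KLA plus hBD3 lowered few single genes past the threshold. Trim25, Oasl1 and the ADP-ribosyltransferase Parp14 fell and 0 rose, which is 9.68% of the 31 genes. Over all probes 6.99% were called, 3.5% higher and 3.48% lower, and over detected probes 10.3% were called lower, so that by this count the share of antiviral genes called was close to that of other detected probes. The count moved with the setting. It was 8, 7 of them lower, with p-values adjusted over detected probes only, and 10, 9 of them lower, with the replicate number as a block. The shares of probes called under these settings are not given here, so these counts are not set against them. The direction was more uniform. Of the 31 genes 25 were below 0, against 47.7% of detected probes, and the median was -0.30, against 0.02. In 9 genes (Trim25, Oasl1, Isg15, Zbp1, Usp18, Oas1a, Ifi35, Parp14 and Parp9) all KLA plus hBD3 arrays lay below all KLA arrays, which is 29.0% against 19.9% of detected probes and 10.5% of all probes. Between 2 and 6 genes were called when 1 array was left out. Without KLA plus hBD3 replicate 3 the median was -0.18 and Trim25 and Oasl1 were called.

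**Figure D2:**
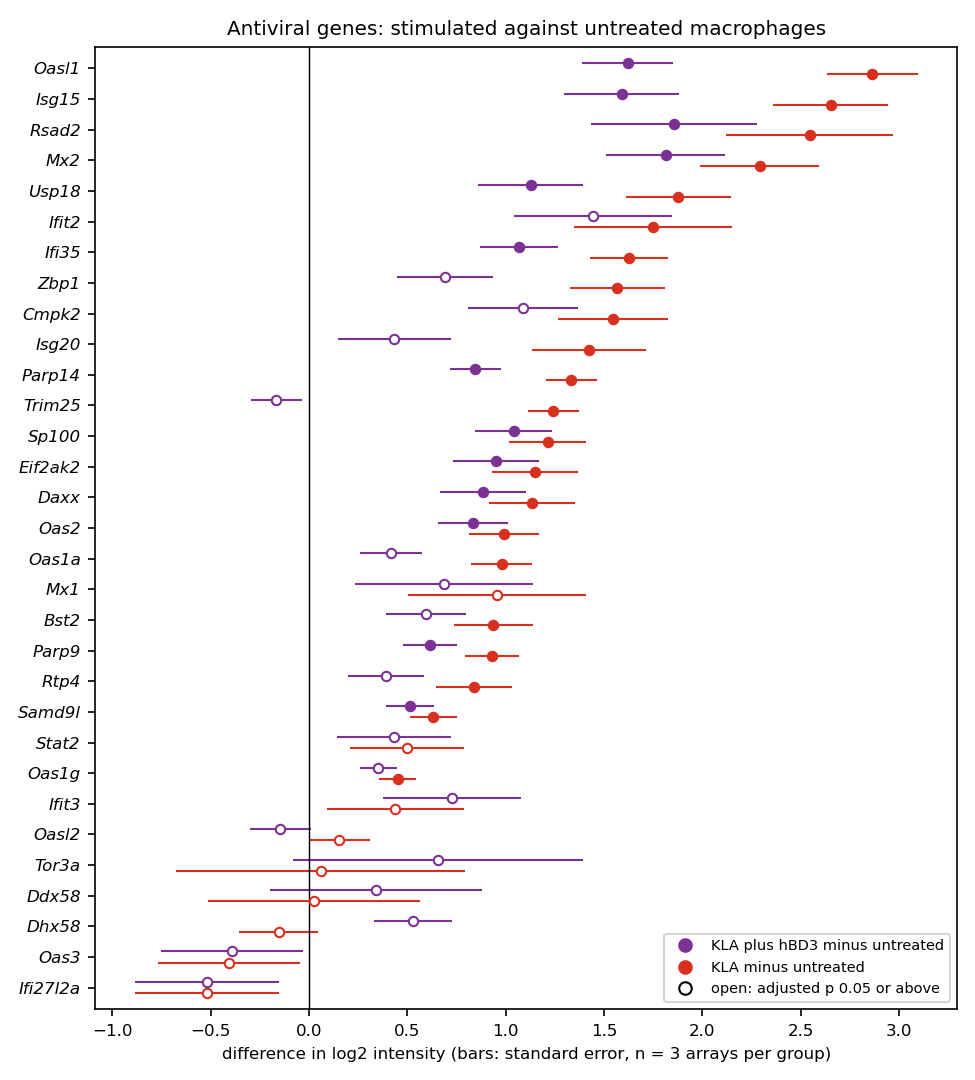
Differences in log2 intensity from untreated macrophages for the 31 detected antiviral genes, KLA plus hBD3 in purple and KLA in red (points are differences of group means, bars the standard error, n = 3 arrays per group, filled points called at an adjusted p under 0.05). KLA points lie to the right of KLA plus hBD3 points for most genes, most widely for Trim25, Oasl1 and Isg15, and Ifit3, Tor3a, Ddx58 and Dhx58 lie the other way round.

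hBD3 alone called no antiviral gene against untreated macrophages by limma, where 0.00442% of all probes were called. At an unadjusted p under 0.05 there were 2 of 37, where 7.31% of all probes were. The median of the 31 detected genes was -0.12, against -0.01 over detected probes, and its sign rested on single arrays, with 0.07 without untreated replicate 1, -0.0038 without hBD3 replicate 3, -0.24 without untreated replicate 2 and -0.21 without hBD3 replicate 1. The interaction, which is the difference that hBD3 made with KLA minus the difference it made without KLA, was called for 1 gene, Trim25, where 3.41% of all probes were called, 1.74% negative.

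Trim25 was grouped with the sensors of viral nucleic acid, since it acts on RIG-I. It read 9.56, 9.46 and 9.70 in KLA plus hBD3 arrays, 10.93, 10.77 and 11.25 in KLA arrays, 9.88, 9.98 and 9.82 in hBD3 arrays and 9.62, 9.64 and 9.96 in untreated arrays. The KLA arrays stood apart from all 9 others, and the KLA plus hBD3 arrays overlapped the untreated arrays. Trim25 fell by 1.41 ± 0.13 with KLA plus hBD3 against KLA (SE, limma adjusted p = 3.78e-05), a 2.65-fold fall, and rose by 1.24 ± 0.13 with KLA against untreated (adjusted p = 2.74e-05, or 0.0523 with median centring). The fall was called under all 21 other settings. The difference between KLA plus hBD3 and untreated was -0.16, with a 95% interval of -0.44 to 0.11. The interaction was -1.56 (adjusted p = 6.74e-04), which was not called with median centring (adjusted p = 0.108) or without the replicate 1 arrays of all groups (adjusted p = 0.0681). A dimmer second Trim25 probe was detected in 0 KLA plus hBD3, 2 KLA, 3 hBD3 and 3 untreated arrays. By limma it was called neither with KLA against untreated (0.39, adjusted p = 0.341) nor with KLA plus hBD3 against KLA (adjusted p = 0.0629). It read 5.82, 5.85 and 6.01 in KLA plus hBD3 arrays, below the untreated arrays at 6.14, 6.26 and 6.46.

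Zbp1, a sensor of left-handed nucleic acid, read 7.57, 7.54 and 6.45 in KLA plus hBD3 arrays, 8.24, 8.08 and 7.87 in KLA arrays, 6.73, 6.43 and 6.37 in hBD3 arrays and 6.42, 6.64 and 6.42 in untreated arrays. KLA plus hBD3 replicate 3 was at the untreated level and the other replicates lay midway. Zbp1 rose by 1.57 ± 0.24 with KLA (adjusted p = 6.89e-04). Its difference between KLA plus hBD3 and KLA was -0.88 ± 0.24, with a limma adjusted p of 0.0544. This p-value came under the threshold without KLA plus hBD3 replicate 1 (0.0341) or replicate 2 (0.0425). Both dimmer Zbp1 probes were detected in every KLA and KLA plus hBD3 array. Between these groups each differed by -0.31, and neither was called (limma adjusted p = 0.432 and 0.469). With the mean of all its probes, Zbp1 differed by -0.50 and was called (adjusted p = 0.0309).

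Dhx58 encodes LGP2, a helicase that tunes the sensors RIG-I and MDA5. It read 11.12, 10.77 and 10.62 in KLA plus hBD3 arrays, 10.14, 10.14 and 10.18 in KLA arrays, 10.33, 10.24 and 9.87 in hBD3 arrays and 10.82, 10.03 and 10.08 in untreated arrays. The KLA plus hBD3 arrays lay above all KLA arrays, and untreated replicate 1 lay with them. The difference of KLA plus hBD3 from KLA was 0.68 ± 0.20 (limma adjusted p = 0.067), and it was 0.0103 without untreated replicate 1. KLA made no called difference to it (-0.15 ± 0.20, adjusted p = 0.739). The 4 probes that name Dhx58 disagreed. A second probe was called higher with KLA plus hBD3 against KLA (0.66, adjusted p = 0.0166), the third differed by -0.10 and the fourth was called lower (-0.40, adjusted p = 0.0283). Both the third and the fourth were called higher with KLA against untreated (1.13 and 0.67). The direction for Dhx58 therefore depends on the probe, and with the mean of its probes the difference of KLA from untreated was 0.47 (adjusted p = 0.0471).

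Ddx58, which encodes RIG-I, read 9.12, 8.78 and 8.77 in KLA plus hBD3 arrays, 9.47, 8.97 and 7.28 in KLA arrays, 8.76, 8.33 and 7.13 in hBD3 arrays and 9.24, 8.51 and 7.90 in untreated arrays. The replicates of a group spread more than the groups did, and no comparison was called. The dimmest of its 3 probes, detected in 2 KLA plus hBD3 arrays, 3 KLA arrays, 0 hBD3 arrays and 1 untreated array, read 6.37, 6.45 and 6.39 with KLA and 6.14, 5.77 and 5.95 in untreated arrays. This probe had no low KLA replicate 3 and was called higher with KLA (0.45, adjusted p = 0.00543). Ifih1, which encodes MDA5, was undetected.

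The family of the 2-5A synthetases makes the second messenger that activates the ribonuclease RNase L. Of its 8 listed genes, counting the kinase Eif2ak2 and the exonuclease Isg20, 6 rose with KLA, 3 were higher with KLA plus hBD3 than in untreated macrophages, and 1 fell with KLA plus hBD3 against KLA. Of all detected probes, 19% and 5.95% were called higher in the first 2 comparisons and 10.3% lower in the last, so that 1 of 8 is near that share. Oasl1 had the largest rise of all 31 genes. It read 11.04, 11.04 and 10.43 in KLA plus hBD3 arrays, 12.34, 11.76 and 12.13 in KLA arrays, 9.29, 8.97 and 8.70 in hBD3 arrays and 9.61, 8.85 and 9.18 in untreated arrays. The KLA plus hBD3 arrays formed a middle level that overlapped neither KLA nor the arrays without KLA. Oasl1 rose by 2.86 ± 0.23 with KLA, or 7.28-fold (adjusted p = 3.91e-06), fell by 1.24 ± 0.23 with KLA plus hBD3 against KLA, or 2.37-fold (adjusted p = 0.00535), and was still 1.62 ± 0.23 above untreated with both (adjusted p = 0.00231). A second Oasl1 probe was called in the same directions against KLA (-1.05, adjusted p = 0.00864) and with KLA (2.04, adjusted p = 2.93e-05). The third read 11.39, 10.91 and 8.06 in KLA arrays, low in replicate 3, and with the mean of all 3 probes the fall was 0.88 and was not called (adjusted p = 0.213).

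Isg20 read 7.35, 7.15 and 6.43 in KLA plus hBD3 arrays, 8.20, 7.26 and 8.43 in KLA arrays, 6.57, 6.36 and 6.34 in hBD3 arrays and 6.67, 6.23 and 6.72 in untreated arrays. KLA replicate 2 lay among the KLA plus hBD3 arrays. Isg20 rose by 1.42 ± 0.29 with KLA (adjusted p = 0.00455), and its difference between KLA plus hBD3 and KLA was -0.99 ± 0.29 (adjusted p = 0.0679), or -1.34 without KLA replicate 2 (adjusted p = 0.00598). The synthetases proper moved less. Oas2 rose by 0.99, Oas1a by 0.98 and Oas1g by 0.45 with KLA (adjusted p = 0.002, 8.35e-04 and 0.00523), and Eif2ak2, which halts translation on sensing double-stranded RNA, by 1.15 (adjusted p = 0.00302). Oas1a was the one of these near the threshold against KLA, at -0.56 ± 0.16 (adjusted p = 0.0541), with 0.0474 without KLA plus hBD3 replicate 1, 0.00965 without KLA replicate 2 and 0.0477 without untreated replicate 1. Oas2 and Eif2ak2 were called higher with KLA plus hBD3 than in untreated macrophages (0.84 and 0.95). The probes used for Oas3 and Oasl2 passed no test, while a second Oasl2 probe was called higher with KLA (0.76, adjusted p = 0.0413), and untreated replicate 1 of Oas3, at 9.99, stood above its other replicates at 8.04 and 8.70.

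The IFIT proteins bind viral RNA and block its translation. Ifit2 read 12.69, 12.38 and 11.51 in KLA plus hBD3 arrays, 12.69, 12.23 and 12.58 in KLA arrays, 11.33, 10.79 and 9.96 in hBD3 arrays and 11.54, 10.37 and 10.33 in untreated arrays. The KLA plus hBD3 arrays lay among the KLA arrays but for replicate 3. Ifit2 rose by 1.75 ± 0.40 with KLA (adjusted p = 0.00995), and the difference between KLA plus hBD3 and KLA was -0.30, with a 95% interval of -1.18 to 0.57. Ifit3, a partner of other IFIT proteins, read 13.50, 13.02 and 12.62 in KLA plus hBD3 arrays, 12.84, 12.61 and 12.83 in KLA arrays, 12.40, 11.98 and 11.89 in hBD3 arrays and 13.29, 11.61 and 12.06 in untreated arrays. Its untreated replicate 1 lay above every KLA array. The difference of KLA plus hBD3 from KLA was 0.29 with an interval of -0.48 to 1.05, and that of KLA from untreated was 0.44 (adjusted p = 0.531), or 0.93 without untreated replicate 1 (adjusted p = 0.0257). Ifit1 was undetected in every array.

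Mx GTPases trap viral nucleoproteins, and the Mx1 gene is defective in many laboratory strains. Mx2 read 10.22, 10.67 and 9.60 in KLA plus hBD3 arrays, 10.77, 10.23 and 10.92 in KLA arrays, 8.82, 8.64 and 8.02 in hBD3 arrays and 8.84, 8.09 and 8.12 in untreated arrays. Both groups with KLA lay above both groups without it, and overlapped each other. Mx2 rose by 2.29 ± 0.30 with KLA and by 1.81 ± 0.30 with KLA plus hBD3 against untreated (adjusted p = 2.05e-04 and 0.00558), and the difference between these groups was -0.48 with an interval of -1.14 to 0.18. Mx1 read 8.46, 7.47 and 6.08 in KLA arrays and 6.73, 6.26 and 6.16 in untreated arrays, and its difference of 0.96 was called only without KLA replicate 3 among the settings that left out 1 array (adjusted p = 0.00313, against 0.229 with all arrays). With the replicate number as a block it was called (adjusted p = 0.0376).

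Isg15, whose product is coupled to viral and host proteins, read 11.83, 11.66 and 10.79 in KLA plus hBD3 arrays, 12.58, 12.47 and 12.41 in KLA arrays, 9.82, 9.75 and 8.85 in hBD3 arrays and 10.22, 9.64 and 9.64 in untreated arrays. As with Oasl1, the KLA plus hBD3 arrays formed a middle level that met neither of the others. Isg15 rose by 2.65 ± 0.29 with KLA, or 6.29-fold (adjusted p = 4.87e-05), and by 1.59 with KLA plus hBD3 against untreated (adjusted p = 0.00971, but 0.0524 without KLA plus hBD3 replicate 1 and 0.0554 without replicate 2). The difference between KLA plus hBD3 and KLA was -1.06 ± 0.29, with adjusted p = 0.0516. It passed without KLA plus hBD3 replicate 1 (0.043), hBD3 replicate 3 (0.0169) or untreated replicate 1 (0.0473). Usp18, the protease that removes Isg15 and silences the interferon receptor, rose by 1.88 with KLA (adjusted p = 3.64e-04) and differed by -0.75 between KLA plus hBD3 and KLA (adjusted p = 0.153). With the mean of its probes the KLA difference of Usp18 was 1.30 and was not called (adjusted p = 0.148).

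**Figure D3:**
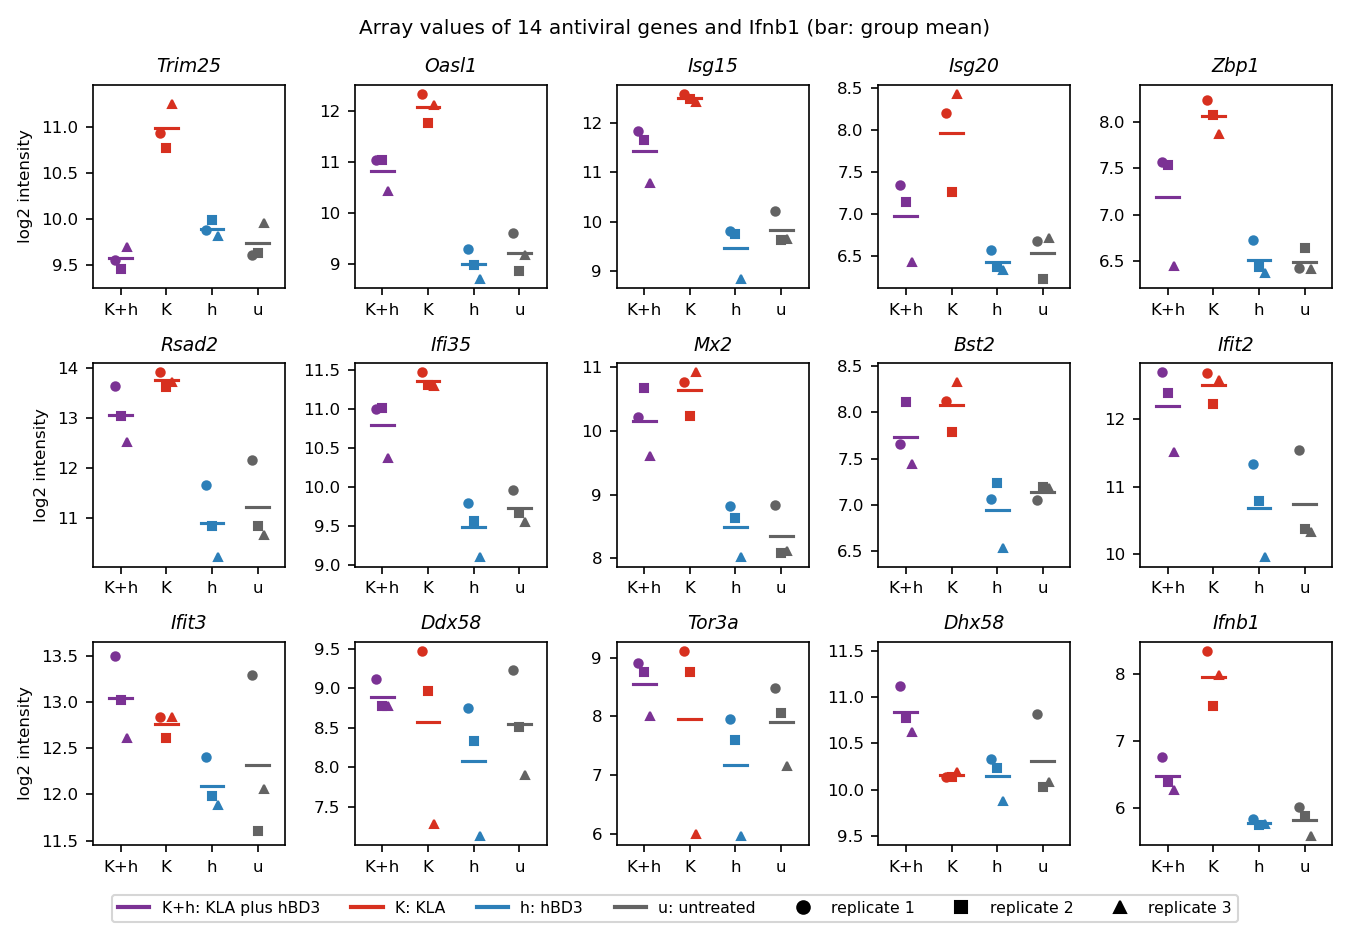
Log2 intensity in each array for 14 antiviral genes and Ifnb1, ordered by the difference between KLA plus hBD3 and KLA, with groups from left to right KLA plus hBD3, KLA, hBD3 and untreated (symbols are the replicates, bars the group means, and each panel has its own axis). Trim25 returns to the untreated level with KLA plus hBD3, Oasl1 and Isg15 lie midway, Mx2 and Ifit2 overlap KLA, and the replicate 3 triangles of Ddx58 and Tor3a fall away in KLA and hBD3.

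Rsad2 encodes viperin, which makes a chain-terminating nucleotide, and lies beside Cmpk2, a nucleotide kinase. Rsad2 read 13.65, 13.04 and 12.53 in KLA plus hBD3 arrays, 13.92, 13.63 and 13.73 in KLA arrays, 11.66, 10.84 and 10.21 in hBD3 arrays and 12.16, 10.84 and 10.65 in untreated arrays. Again both groups with KLA lay above both groups without it. Rsad2 rose by 2.55 ± 0.42 with KLA and by 1.86 ± 0.42 with KLA plus hBD3 against untreated (adjusted p = 0.00113 and 0.0291), the second value at 0.127, 0.103, 0.101 and 0.117 without KLA plus hBD3 replicate 1 or 2 or untreated replicate 2 or 3. The difference between KLA plus hBD3 and KLA was -0.69 with an interval of -1.62 to 0.24. Cmpk2 rose by 1.55 with KLA (adjusted p = 0.00209) and differed by -0.46 between KLA plus hBD3 and KLA.

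Among the signalling, ADP-ribosylation and nuclear body genes, 5 of the 6 detected rose with KLA and the same number were higher with KLA plus hBD3 than in untreated macrophages. Of all detected probes, 19% and 5.95% were called higher in these comparisons. Ifi35, a binding partner of the interferon-induced protein Nmi, read 10.37 in replicate 3 of KLA plus hBD3 and up to 11.01 in the other replicates, 11.47, 11.30 and 11.29 in KLA arrays, 9.79, 9.56 and 9.09 in hBD3 arrays and 9.96, 9.66 and 9.54 in untreated arrays. Its KLA plus hBD3 arrays lay below KLA and well above the other groups. It rose by 1.63 ± 0.20 with KLA (adjusted p = 1.07e-04) and differed by -0.56 ± 0.20 between KLA plus hBD3 and KLA (adjusted p = 0.149). Parp14, whose fall also passed, read 13.31, 13.40 and 13.38 in KLA plus hBD3 arrays, 13.95, 13.81 and 13.80 in KLA arrays, 12.55, 12.51 and 12.14 in hBD3 arrays and 12.79, 12.30 and 12.47 in untreated arrays. The replicates were close together, and KLA plus hBD3 lay between KLA and untreated without overlap. Parp14 rose by 1.33 ± 0.13 with KLA (adjusted p = 1.74e-05) and fell by 0.49 ± 0.13 with KLA plus hBD3 against KLA (adjusted p = 0.0428). That fall failed to pass in 13 of 21 other settings. Leaving out any array of KLA plus hBD3 or of KLA, hBD3 replicate 2 or untreated replicate 3 ended the call, with adjusted p up to 0.15 and the fall between 0.44 and 0.51.

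Sp100 and Daxx, proteins of nuclear bodies that silence viral genomes, rose by 1.21 and 1.14 with KLA (adjusted p = 9.50e-04 and 0.00326) and by 1.04 and 0.89 with KLA plus hBD3 against untreated. With the mean of all probes that name it, Sp100 differed by 0.23 with KLA and was not called (adjusted p = 0.361). Between KLA plus hBD3 and KLA they differed by -0.17 and -0.25, and neither passed. Parp9, which works with Parp14, rose by 0.93 with KLA (adjusted p = 4.42e-04), or 0.33 with median centring (adjusted p = 0.296), and differed by -0.31 between KLA plus hBD3 and KLA. With the mean of its probes that difference was -0.37 and was called (adjusted p = 0.0262), as was the second Parp9 probe, detected in KLA arrays only (adjusted p = 0.00953). Stat2, a subunit of ISGF3, was not called in any comparison, at 0.50 ± 0.29 for KLA against untreated, or adjusted p = 0.0291 without untreated replicate 1.

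Of the membrane, chaperone and other proteins, Bst2 holds budding virus at the cell surface. It read 7.66, 8.11 and 7.44 in KLA plus hBD3 arrays, 8.12, 7.78 and 8.33 in KLA arrays, 7.07, 7.23 and 6.54 in hBD3 arrays and 7.05, 7.19 and 7.18 in untreated arrays. KLA plus hBD3 replicate 2 lay among the KLA arrays, and all KLA plus hBD3 arrays lay above the hBD3 and untreated arrays. Bst2 rose by 0.94 ± 0.20 with KLA (adjusted p = 0.00664) and differed by -0.34 between KLA plus hBD3 and KLA, with an interval of -0.78 to 0.10. Rtp4 and Samd9l rose by 0.84 and 0.63 with KLA (adjusted p = 0.0105 and 0.00296). Tor3a, an ATPase of the endoplasmic reticulum, read 8.91, 8.75 and 8.01 in KLA plus hBD3 arrays, 9.11, 8.76 and 6.00 in KLA arrays, 7.95, 7.59 and 5.96 in hBD3 arrays and 8.49, 8.07 and 7.15 in untreated arrays. It was detected in 2 of 3 KLA arrays and 2 of 3 hBD3 arrays, and its difference of 0.60 between KLA plus hBD3 and KLA had an interval of -1.01 to 2.21. Ifi27l2a, a small hydrophobic protein, was the gene lowest with KLA against untreated, at -0.52 ± 0.37 (adjusted p = 0.467).

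**Figure D4:**
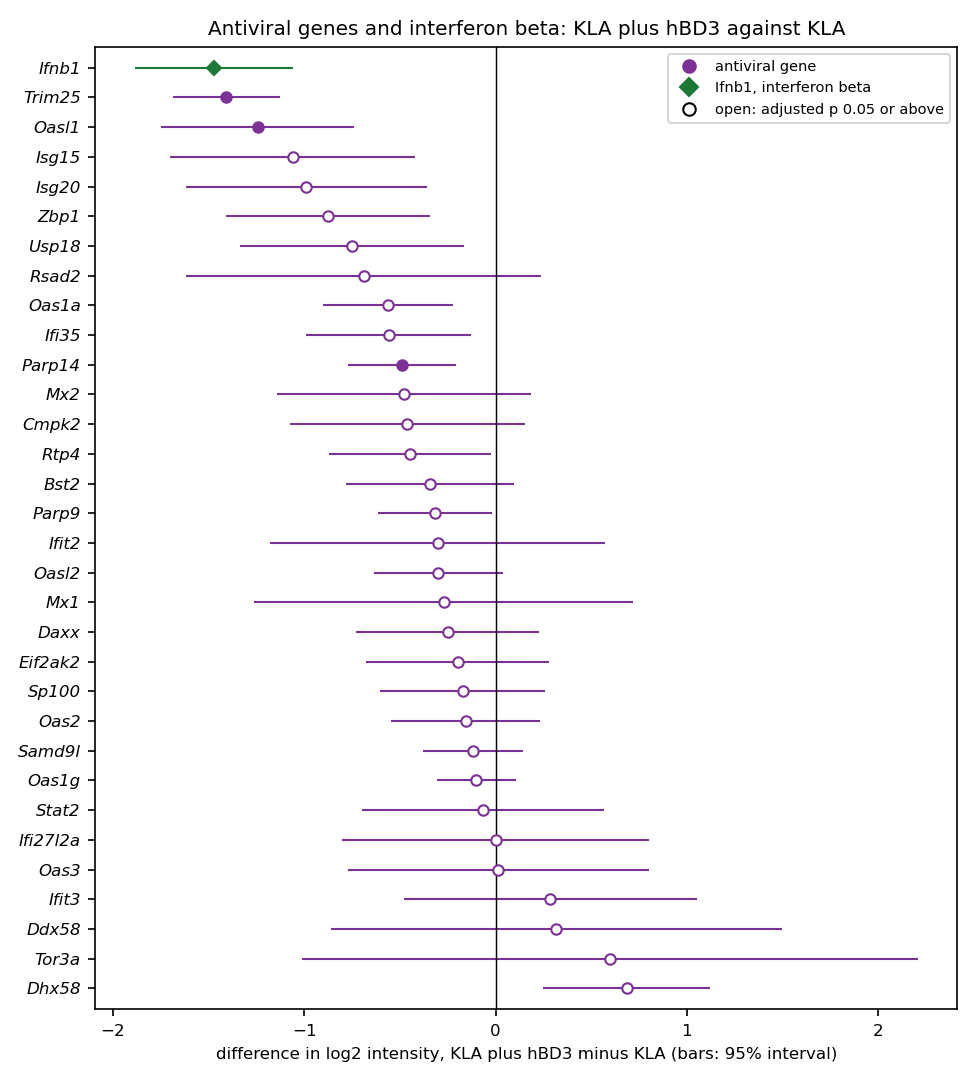
Difference in log2 intensity between KLA plus hBD3 and KLA for the 31 detected antiviral genes and Ifnb1 (points are differences of group means, bars 95% intervals, n = 3 arrays per group, filled points called at an adjusted p under 0.05). Ifnb1, Trim25, Oasl1 and Parp14 are filled and lie below 0, 25 antiviral genes lie below 0, and the interval of Tor3a runs from -1.01 to 2.21.

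Several probes were present for 18 of the antiviral genes, 69 in all for the 37, and they did not always move together. The probe used for Usp18 read 12.53 or more in every KLA array, and its second probe read 11.30, 10.47 and 6.79 there. The probe used for Ifit3 read 12.84, 12.61 and 12.83 there, and its second probe 9.38, 8.91 and 6.66. In both genes the second probe was low in replicate 3 of KLA and of hBD3 and not in KLA plus hBD3 replicate 3, where it read 9.64 for Usp18 and 8.64 for Ifit3. The third probes of Oasl1 and Parp14 did the same. Each probe has its own brightness, so only the pattern across arrays can be set side by side. What made them differ was not tested. Without the replicate 3 arrays of KLA, hBD3 and untreated, 6 antiviral genes were called between KLA plus hBD3 and KLA, 1 higher (Dhx58) and 5 lower (Trim25, Oasl1, Parp14, Isg15 and Zbp1).

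**Figure D5:**
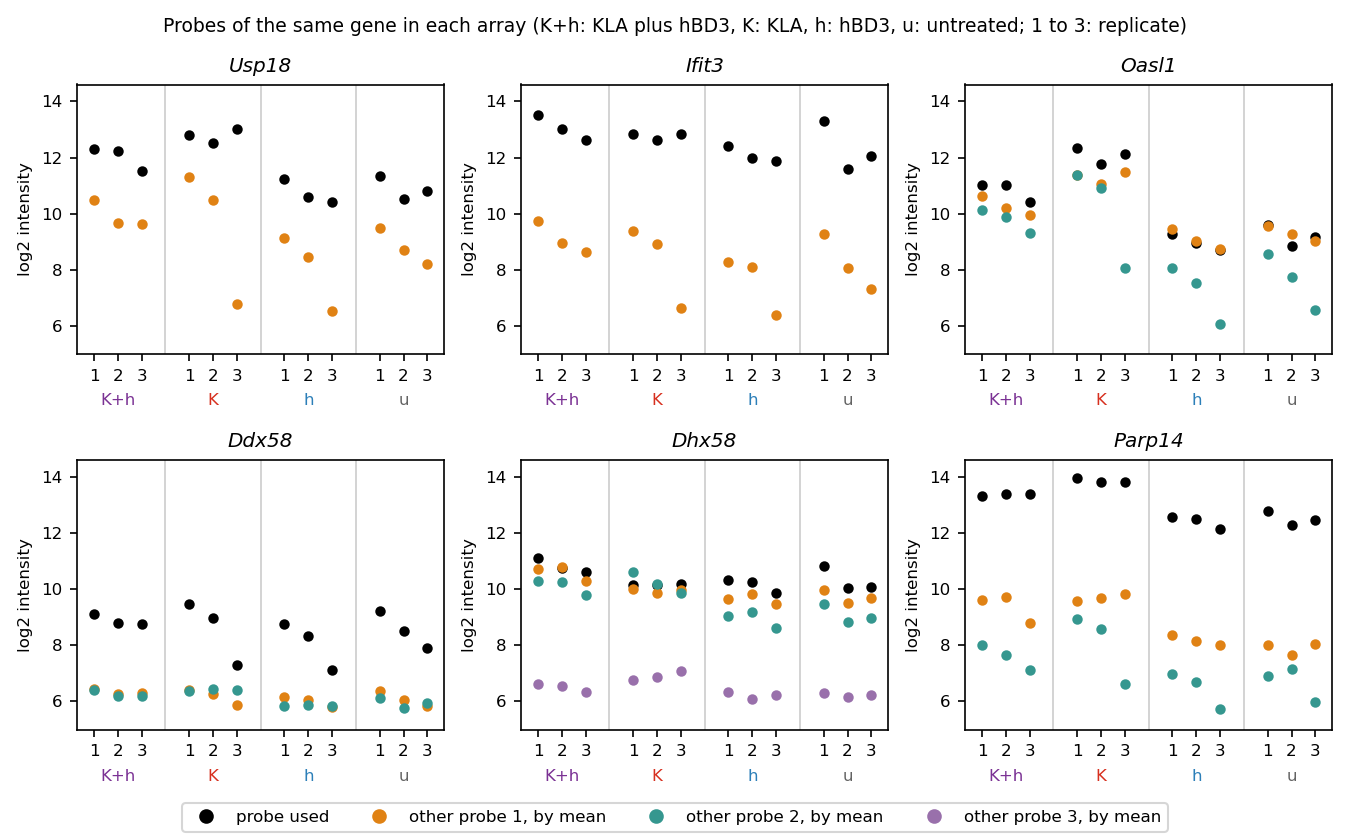
Log2 intensity of every probe that names Usp18, Ifit3, Oasl1, Ddx58, Dhx58 or Parp14 alone, by array (black is the probe used, the others follow in order of mean signal, and levels of different probes are not comparable). The second probes of Usp18 and Ifit3 and the third probes of Oasl1 and Parp14 drop in replicate 3 of KLA and hBD3, where the black points do not, and the probes of Dhx58 differ in whether KLA plus hBD3 lies above KLA.

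Upstream of these genes, Ifnb1 fell when hBD3 was added to KLA. It read 6.77, 6.39 and 6.27 in KLA plus hBD3 arrays and 8.34, 7.52 and 7.98 in KLA arrays, and was undetected in every hBD3 array (5.83, 5.74 and 5.75) and every untreated array (6.01, 5.87 and 5.58). The KLA plus hBD3 arrays lay below all KLA arrays and above all the arrays without KLA. Ifnb1 fell by 1.47 ± 0.19 with KLA plus hBD3 against KLA (adjusted p = 4.41e-04), and the fall was called under all 20 other settings run for it. With undetected signals set to the lowest detected signal of their array, mean Ifnb1 stood at least 1.32-fold above untreated in KLA plus hBD3. In KLA it stood at least 3.67-fold above untreated. The limma fit, on the values without that step, gave adjusted p = 0.083 for KLA plus hBD3 and 8.37e-06 for KLA against untreated. The first of these p-values was not under 0.05. It came under 0.05 without KLA replicate 1 (0.0443) or KLA replicate 2 (0.0334). The same held with neqc (0.0407), detected probes only (0.045), an intensity trend with a robust prior (0.0431) and the replicate block (0.0161). Of the other ligands, Ifna1 was detected in all KLA arrays and in none without KLA, so that no fold is given for its higher level there (adjusted p = 0.0141), and Ifna2, Ifna4 and Ifna5 were undetected.

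Of the 27 measured genes on the list of interferon ligands, receptors and signalling proteins, 7 fell and 0 rose with KLA plus hBD3 against KLA, and 11 rose and 2 fell with KLA against untreated. All 7 that fell were among the 22 detected, which is 31.8%, where 10.3% of detected probes were called lower. The KLA counts are over all 27 measured genes, of which 48.1% were called in either direction, where 14.8% of all probes were. Of the 22 detected, 12 were called with KLA in either direction, and 19% of detected probes were called higher. The median difference between KLA plus hBD3 and KLA was -0.12 over the 22 detected, against 0.02 over detected probes. Of the genes that fell, Ifnb1 alone encodes an interferon, and the others encode signalling proteins. Socs3 and Ptpn2, which both restrain cytokine receptors, fell by 1.99 and 1.20 (adjusted p = 5.58e-05 and 2.33e-05). Ticam1 and Ticam2, the adaptors TRIF and TRAM, fell by 0.86 and 0.52 (adjusted p = 0.00268 and 0.00346). Jak1 fell by 0.69 (adjusted p = 6.64e-04), and Ptpn11 was the last of the 7. Jak1 read 6.41, 6.39 and 6.36 in KLA plus hBD3 arrays, against 6.99, 6.95 and 7.29 in KLA arrays, a small step between tight groups. Irf7, the amplifier of the interferon response, read 10.87, 11.10 and 10.13 in KLA plus hBD3 arrays, 10.78, 10.62 and 10.88 in KLA arrays, 9.95, 9.88 and 9.37 in hBD3 arrays and 10.14, 9.70 and 9.73 in untreated arrays. It rose by 0.91 ± 0.23 with KLA (adjusted p = 0.0171) and differed by -0.06 between KLA plus hBD3 and KLA, with an interval of -0.56 to 0.43. The rise was not called without KLA replicate 1 (adjusted p = 0.0525), untreated replicate 2 (0.0669) or untreated replicate 3 (0.0643).

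A second list held 44 further interferon-induced genes, of which 39 were measured. With KLA against untreated 12 rose and 3 fell, and with KLA plus hBD3 against KLA 2 rose and 3 fell, the median difference being -0.10 over the 29 detected. The KLA counts are over all 39 measured genes, of which 38.5% were called in either direction, where 14.8% of all probes were. Of the 29 detected, 13 were called with KLA in either direction, and 19% of detected probes were called higher. With KLA plus hBD3 against KLA 10.3% of detected probes were called lower, so that 3 of 29 is near the share of other detected probes. The genes that fell were Slfn1, a member of the schlafen family (fell by 1.12, adjusted p = 0.00593), Trim21, an antibody receptor in the cytosol (fell by 0.92, adjusted p = 0.00709), and the helicase Helz2 (fell by 0.85, adjusted p = 0.0232). Helz2 was not called without KLA plus hBD3 replicate 3 (adjusted p = 0.0926), KLA replicate 1 (0.0808) or KLA replicate 3 (0.0718). The genes that rose were Ifi30, a thiol reductase of lysosomes, and the membrane protein Ly6e. Ifi30 read 9.97, 9.86 and 9.63 in KLA plus hBD3 arrays, 8.76, 8.53 and 8.28 in KLA arrays, 10.27, 10.41 and 10.03 in hBD3 arrays and 9.67, 10.16 and 10.10 in untreated arrays. Only KLA arrays were low, since KLA lowered Ifi30 by 1.45 (adjusted p = 4.81e-05) and KLA plus hBD3 stood 1.30 above KLA (adjusted p = 3.39e-04). Ly6e likewise was 1.37 lower with KLA than in untreated macrophages and 0.99 higher with KLA plus hBD3 than with KLA (adjusted p = 3.10e-04 and 0.00677). Both were lowered by KLA, unlike the antiviral genes described above.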

How the data were processed

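The authors summarised bead signals in BeadStudio and deposited intensities after quantile normalization, on a linear scale, beside intensities and detection p-values from before that step, which the deposited headings name by agents, LPS being read as KLA. Each of the 12 columns before normalization matched 1 sample within 0.1% once normalized. Of 45281 probes, 34885 named 1 gene, 18 several and 10378 none. The normalized intensities were taken to log2 and fitted with limma 3.58.1 in R 4.3.3, with 4 group means and 12 arrays, and tested on simulated data. Samples were grouped by treatment label. The members and lists were chosen with earlier results of these data known. Values in every array are given for the gene with the largest KLA difference in each role group, for the 4 largest falls and 4 largest rises between KLA plus hBD3 and KLA, and for the genes called most strongly on the pathway lists. Others are named after their values were seen. The paper describes triplicates from separate mice, the sample labels used here do not name the mouse, and the main fit did not pair arrays. Same-numbered KLA, hBD3 and untreated arrays deviated together (9 of 9 pairs with r of 0.273 to 0.709 between deviations from group means), from the data and no label. Deviations within a group depend on each other, so these pairs are not separate measurements. Differently numbered pairs ranged from -0.623 to 0.440. Replicates 1 and 2 of these groups also deviated together, as KLA replicate 1 with hBD3 replicate 2 (0.424), while replicate 3 stood apart from both. The number of arrays limits the precision. Alternatives were neqc, median centring, detected probes only, an intensity trend with a robust prior, the mean of a gene's probes, a replicate block, and arrays left out.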

Additional observations from a re-analysis of the deposited data

Results flagged for a closer look

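For 7 of the genes named above, the difference that hBD3 made with KLA differed from the difference it made without KLA in the test of the interaction (limma, adjusted over all probes). Over all probes 3.41% were called. Many genes had been named for a large difference between KLA plus hBD3 and KLA, which is a part of the interaction. The count of 7 therefore follows in part from that choice and is no separate support. Trim25 had an interaction of -1.56 (adjusted p = 6.74e-04), from -1.41 with KLA and 0.16 without. Ifnb1 had -1.43 (adjusted p = 0.012), but without KLA it was undetected in every array, so that this value rests on its fall with KLA alone. Among the genes of signalling proteins, Socs3 had -2.25 (adjusted p = 8.67e-04), Ptpn2 -1.11 (adjusted p = 0.00126), Jak1 -0.58 (adjusted p = 0.033) and Ticam2 -0.57 (adjusted p = 0.0317). Ifi30 was the one positive value, at 1.04 (adjusted p = 0.0271). Leaving out 1 array at a time ended the call for Jak1 in 7 of 12 cases, for Ifi30 in 7 and for Ticam2 in 8. It ended the call for Trim25, Ifnb1, Socs3 and Ptpn2 in 0 of 12. With median centring the interaction was not called for Trim25 (adjusted p = 0.108), Ifnb1 (0.13) or Ptpn2 (0.172), and without the replicate 1 arrays of all groups it was not called for Trim25 (0.0681) or Ifnb1 (0.0569). Of the 7 genes, Socs3 alone was called under all 20 other settings.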

How the results depend on the processing

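Of the antiviral genes called with KLA against untreated (23, with Xaf1), 8 were called with median centring and 22 to 25 when 1 array was left out. For KLA plus hBD3 against KLA (3), 8 were called among detected probes only, 5 with an intensity trend and robust prior, 6 without the replicate 3 arrays of KLA, hBD3 and untreated, and 2 to 6 when 1 array was left out, with 5 without KLA plus hBD3 replicate 1 and 6 without untreated replicate 1. For KLA plus hBD3 against untreated (13), 0 were called with median centring, 7 with neqc, 4 without the replicate 1 arrays of all groups, a setting added after seeing the data, and 3 to 17 when 1 array was left out. For the interaction (1), 0 were called with median centring and 0 without the replicate 1 arrays. Counts in this paragraph stand without the share of all probes called under the same setting. Signs reversed for Dhx58 with KLA (0.47 with the mean of all its probes), and with median centring for Samd9l (-0.027) and Ticam2 (-0.46) in KLA plus hBD3 against untreated. The cause was not tested.

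The replicate numbers did not pair the KLA plus hBD3 arrays with the others, since 3 of 9 same-numbered pairs deviated together with r over 0.1, in a range of -0.066 to 0.281. With the replicate block, 10 genes were called for KLA plus hBD3 against KLA and 3 for the interaction. The shares of all probes called with the block in these comparisons are not given here. The 7 added for KLA plus hBD3 against KLA were Isg15 (adjusted p = 0.00293), Ifi35 (0.0105), Zbp1 (0.0111), Oas1a (0.0204), Isg20 (0.0342) and Usp18 (0.0426), all lower, and Dhx58 (0.0109), higher. With KLA against untreated, the block changed the call of Mx1 and of Xaf1 (0.0612) and of no other antiviral gene. Over all probes the block called 3065 for KLA plus hBD3 against untreated (1986 without it) and 15 for hBD3 (2 without it).

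Median centring called 1274 probes higher and 7235 lower with KLA (3095 and 3622 with quantile normalization), 323 and 5857 for KLA plus hBD3 against untreated (888 and 1098), 1216 for KLA plus hBD3 against KLA (3165), 425 for the interaction (1542) and 0 for hBD3. Without the replicate 1 arrays these were 3935 for KLA, 350, 1449, 305 and 0, and with the KLA group reduced to replicate 1 they were 4380 for KLA, 1763 for KLA plus hBD3 against KLA and 984 for the interaction. Without the replicate 3 arrays hBD3 had 53. Leaving out 1 array gave 888 to 2522 probes for KLA plus hBD3 against untreated and 0 to 3 for hBD3. The BeadChip as a block was not run, because the headings do not say which arrays shared a chip. Undetected probes carry no fold.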
